A study of Mus musculus with 3 samples.

Results

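The Scgb3a2-high, Scgb1a1-low secretory cells of the mouse larynx were 1786 of the 41033 cells kept from 60530 barcodes. They were chosen by their counts of unique molecular identifiers (UMIs): a cell was a member when its Scgb3a2 count reached 20 per 10000 UMIs of the cell, while Scgb1a1 stayed under 20 and Muc5b under 3 per 10000. A barcode was kept with 1000 to 40000 UMIs, 500 to 8000 genes and no more than 8% of its UMIs mitochondrial, unless it held UMIs of all of Krt5, Ltf, Scgb3a1 and Dcn. The cells came from Lrig1CreERT2/+; ROSA LSL-tdTomato/+ mice, in which tamoxifen lets a Cre recombinase made from the Lrig1 locus switch on the red protein tdTomato in Lrig1-expressing cells and their progeny. Larynges were collected 24 h after recombination, and tdTomato-positive cells were sorted and read by 10x Genomics 3' single-cell RNA sequencing. There were 3 libraries of this single condition, each a pool of 10 larynges from 5 male and 5 female mice, so every comparison is between groups of cells within libraries (n = 3 libraries unless stated). Neither tdTomato nor Cre was among the genes counted.

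Secretoglobins are small proteins that secretory cells of the airway lining release into the airway fluid. Scgb1a1 is the classical product of club cells, the secretory cells that also detoxify inhaled compounds and can replace other airway cells, whereas Scgb3a2 is made earlier in airway development and is a target of Nkx2-1, the transcription factor that defines lung, trachea and thyroid. Basal cells lie beneath them on the basement membrane, hold Trp63 and the keratins Krt5 and Krt14, and give rise to secretory cells, a step in which Notch signalling is known to take part.

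The 3 libraries held 18068, 10816 and 31646 barcodes, and 477, 191 and 1118 members. These were 3.80% (95% Wilson interval 3.48 to 4.15), 2.67% (2.33 to 3.07) and 5.24% (4.95 to 5.54) of the kept cells, a mean of 3.90% ± 1.28 (SD, n = 3). Members had a median of 14091, 22312 and 15090.5 UMIs. No barcode was shared by members of different libraries, and 47, 5 and 143 members resembled simulated doublets. These were 9.85%, 2.62% and 12.8% of members, beside 5.22%, 2.73% and 9.56% of the kept cells. The number of barcodes flagged in each library was set in advance from its cell count. Intervals cover counting error only, and where samples are pools from the same kind of mouse a p-value measures the spread between these pools. The rule also names the cells with which members were compared: 10067 cells with a Nkx2-1 and a Trp63 UMI and Scgb3a2 under 20 per 10000, referred to as airway basal cells. Neighbouring gates were 134 Scgb1a1-high cells, which differ from the members only in Scgb1a1 at 20 or more per 10000, and 145 Muc5b-high cells, which differ only in Muc5b at 3 or more.

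The gate genes describe the selection and carry no test. Scgb3a2 in members summed to 5453, 4967 and 4531 CPM, the UMIs of a gene per 1000000 UMIs of the group, against 269, 215 and 312 CPM in airway basal cells and 12747, 17972 and 8294 CPM in Scgb1a1-high cells. The median member held 37.1, 39.3 and 35.7 Scgb3a2 UMIs per 10000, not far above the gate. Most members lay close to it: 54.5%, 52.4% and 57.5% of them had 20 to 40 per 10000, and 14.9%, 15.7% and 10.0% had 80 or more. Scgb1a1 was found in 47.4%, 32.5% and 23.9% of the members and its median was 0 in each library. Cells just outside the Scgb3a2 gate, at 15 to 20 per 10000, numbered 124, 54 and 342 and had 421, 521 and 510 CPM of Trp63, beside 396, 352 and 488 CPM in the 93, 33 and 259 members at 20 to 25. The cells on either side of the gate had Trp63 levels of the same order. Fibroblast cells, taken as cells with Dcn and Col1a1 UMIs and no Epcam UMI, should lack Scgb3a2, and 2 of 1403, 0 of 265 and 1 of 1321 of them reached the gate. Those that also held Krt5, Ltf and Scgb3a1 UMIs were dropped by the rule, and those with an Epcam UMI were not counted. The background that these cells give may therefore be too low.

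The other markers named for these cells were present beyond the fibroblast background. Nkx2-1 was at 107, 112 and 153 CPM in members, between the 85.3, 53.5 and 92.6 CPM of Scgb1a1-high cells and the 153, 134 and 176 CPM of airway basal cells, which were chosen by it. Aldh1a7, an aldehyde dehydrogenase of club cells, was at 76.8, 71.3 and 56.9 CPM and had a UMI in 43.6%, 53.4% and 40.3% of members, against 1.43%, 1.13% and 1.44% of fibroblast cells, whose median depth was 11273, 11461 and 9015 UMIs. Ugt2b34, an enzyme that attaches glucuronic acid to lipophilic compounds, had a UMI in 19.5%, 17.8% and 28.5% of members. All 4 markers were higher in members than in all kept cells in each of the libraries, where Scgb3a2 was the gate itself.

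**Figure D1:**
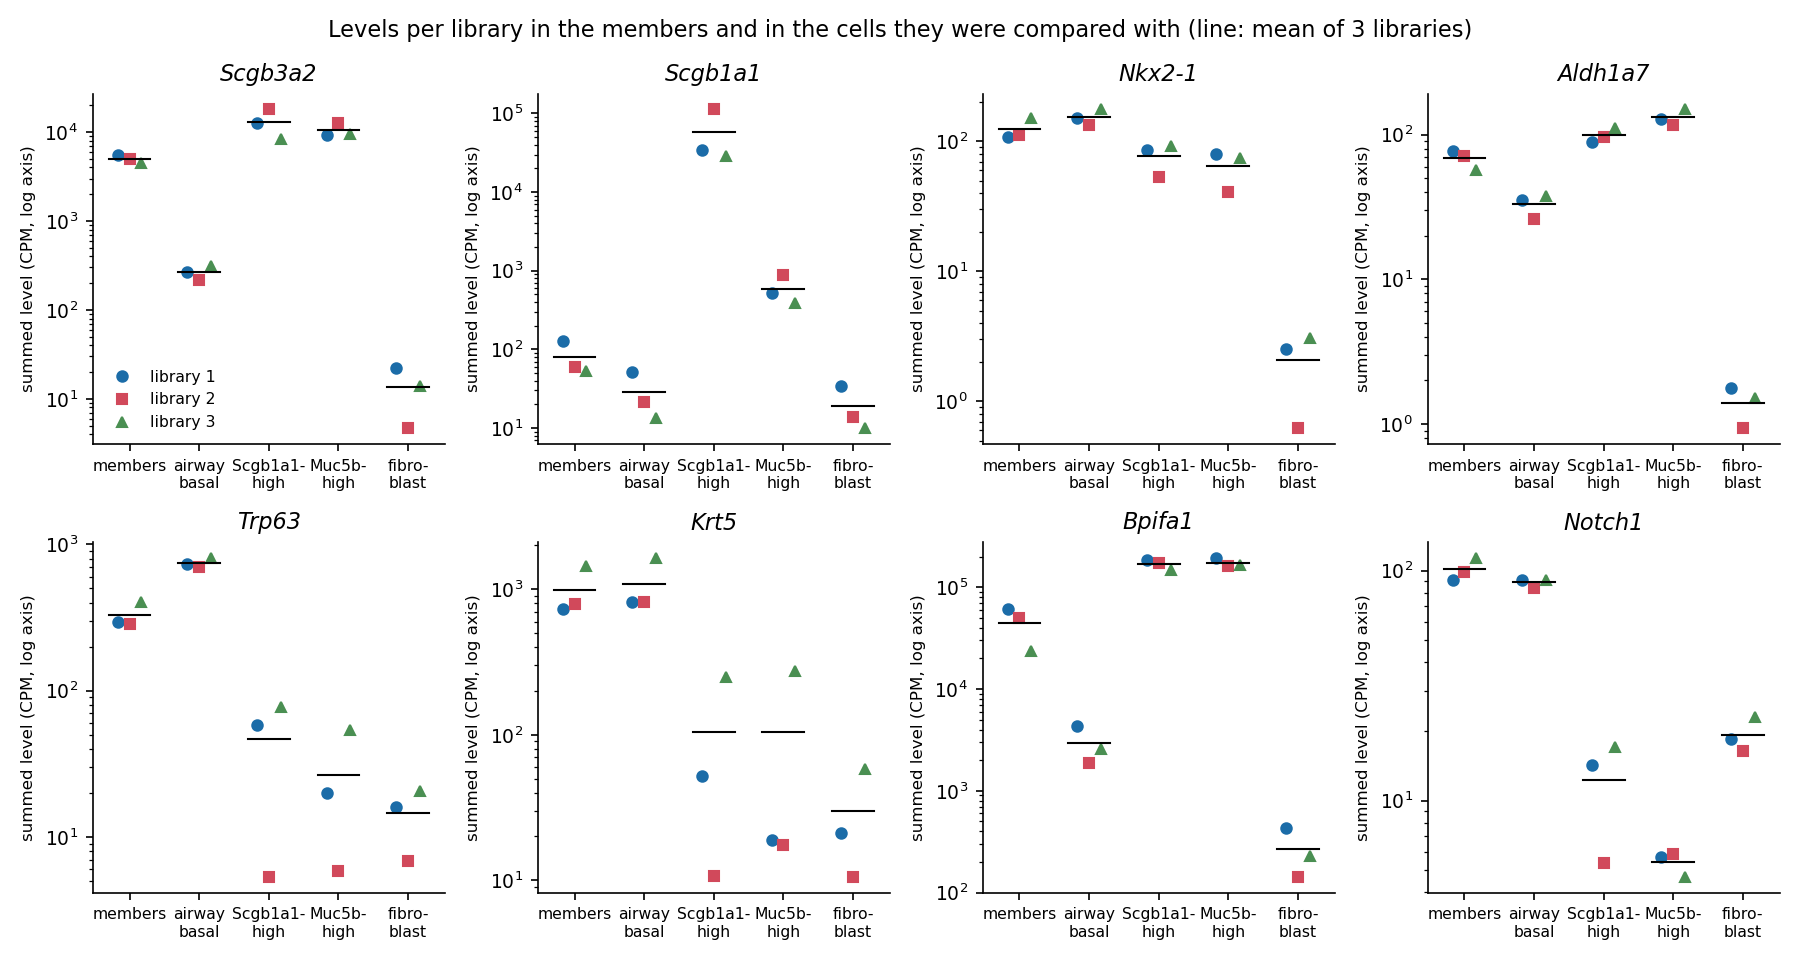
Summed level (CPM, log axis) of 8 genes in the members, the airway basal cells, the Scgb1a1-high and Muc5b-high neighbours and fibroblast cells, with 1 point for each library and a line at the mean of 3 libraries. Krt5 of the members lies near the airway basal cells, Trp63 lies below them and above both neighbours in every library, and Bpifa1 lies between airway basal cells and neighbours.

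The members were not free of basal genes, and the name "secretory" describes only some of them. Krt5 summed to 733, 789 and 1451 CPM in members, beside 811, 824 and 1642 CPM in airway basal cells and 52.2, 10.7 and 250 CPM in Scgb1a1-high cells. The order of the libraries was the same in members and airway basal cells, with library 3 highest. A Krt5 UMI was found in 71.1%, 75.4% and 91.4% of members (mean 79.3% ± 10.7) and a Trp63 UMI in 62.9%, 74.3% and 83.5% (mean 73.6% ± 10.3). With members thinned to 5000 UMIs, which left out the shallower cells and kept 372, 171 and 982 members, the shares were 74.0% ± 13.1 for Krt5 and 61.4% ± 6.69 for Trp63. The background was lower for Trp63, at 10.7%, 6.42% and 12.9% of fibroblast cells, than for Krt5, at 17.0%, 11.7% and 36.6%. The rule dropped fibroblast cells that held Krt5 together with Ltf and Scgb3a1, so the Krt5 background may be too low. UMIs of both genes were in 57.0%, 66.0% and 81.3% of members, and of neither in 23.1%, 16.2% and 6.44%. These genes belong to the rule or its comparison group, so the values are a description.

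**Figure D2:**
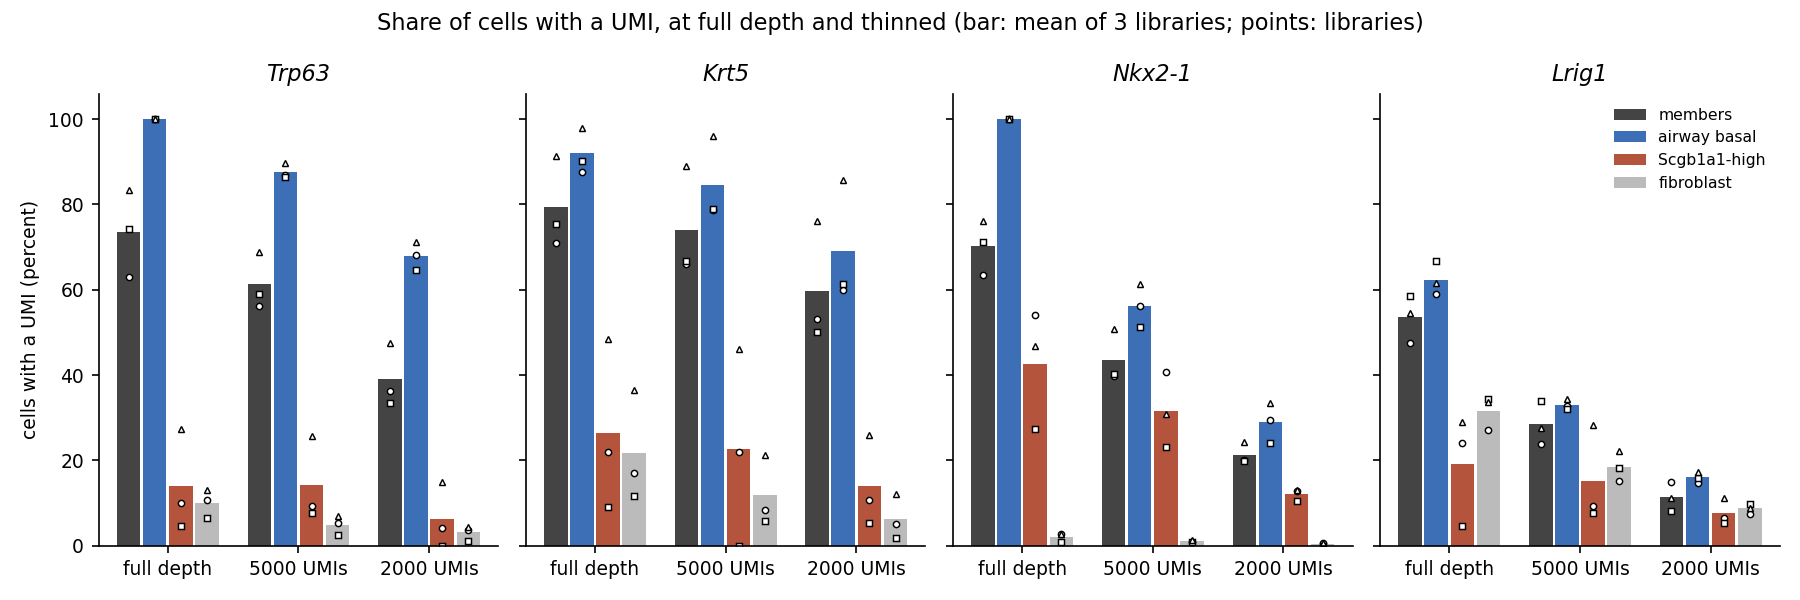
Share of cells with a UMI (percent) of Trp63, Krt5, Nkx2-1 and Lrig1 at full depth and with cells thinned to 5000 and to 2000 UMIs, as means of 3 libraries with each library as a point. Airway basal cells are at 100% for Trp63 and Nkx2-1 at full depth by their selection. Lrig1 in members falls from 53.6% to 28.5% and 11.5% as cells are thinned.

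Markers of most other cell types were lower in the members, with some gland, ionocyte, macrophage and alveolar type 2 markers among the exceptions. Of the marker lists, all 8 ciliated, all 7 neuroendocrine and C cell, all 6 fibroblast and all 5 endothelial markers were lower in members than in all kept cells in each library. All kept cells include cells of those types, so a lower level does not mean absence. Dcn, a fibroblast marker and a gene of the rule, was at 324, 315 and 504 CPM in members. It made up most of their fibroblast sum of 351, 331 and 614 CPM, and the part of fibroblast RNA in members was not tested. Of 6 macrophage markers only Lyz2, which airway secretory cells also make, was higher, and Ptprc, the pan-leukocyte marker, was at 0. Thyroid follicle markers, which matter because the thyroid also holds Nkx2-1, summed to 41.5, 32.1 and 28.1 CPM in members and 591, 564 and 108 CPM in airway basal cells. Trpm5 and Il25 of tuft cells were at 0 in all members. The 9 gland markers summed to 4217, 2060 and 781 CPM in members and 1993, 1700 and 1714 CPM in all kept cells, most of it Ltf, a gene of the rule, at 3960, 1973 and 738 CPM in members. Of the 9, 4 were lower in members in every library and 0 were higher in every library. The ionocyte sum was 46.0, 30.4 and 22.8 CPM, each above the sum in all kept cells of its library (10.8 CPM in library 2 and 15.1 CPM in library 3), through Atp6v1b1, a proton pump subunit, while the other 4 ionocyte markers were lower in each library. Of 5 alveolar type 2 markers the surfactant genes Sftpb and Sftpa1 were higher in each library, Sftpa1 at 9.78, 1.99 and 2.41 CPM against 3.09, 0.907 and 0.848 CPM. The part of gland cells in the results was not tested.

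Against airway basal cells, more secretory genes were higher than lower in members and more basal cell genes were lower than higher. Bpifa1, a secreted airway protein that binds lipids and bacteria, led the rises. Its level was 60510, 50418 and 23457 CPM in members and 4342, 1874 and 2572 CPM in airway basal cells, so the sums per library did not overlap. The members with 500 or more Bpifa1 UMIs per 10000, a minority described later, carried this level with 156603, 152447 and 128335 CPM, whereas the members with under 50 per 10000 held 1041, 869 and 804 CPM, under the airway basal cells in each library. These classes were cut on Bpifa1 itself and the airway basal cells were not, so the values are a description. The log2 difference over all members was 4.08 ± 0.49 (SE, adjusted p = 0.0089, edgeR quasi-likelihood test with Benjamini-Hochberg adjustment), and fibroblast cells had 435, 143 and 230 CPM. In all, 366 of 15876 genes tested (2.31%) were higher and 236 (1.49%) lower, 3.79% called together. With the library as a block, because the compared cells of each library share their pool of larynges, 14.6% of genes were called, 1297 higher and 1019 lower, and the 602 genes called without the block were all among them. The count without the block depended on single libraries: without library 1 there was 1 call, without library 2 there were 0 (edgeR, 1684 genes at an unadjusted p under 0.05), and without library 3 there were 969, whereas the blocked fit gave 940, 1345 and 3064. DESeq2 called 1309 on the 3 libraries.

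Lyz2, the airway and macrophage lysozyme, stood at 5095, 2907 and 1400 CPM in members against 359, 166 and 207 CPM (log2 difference 3.83 ± 0.54, adjusted p = 0.0129). The same minority carried it, with 13328, 9474 and 7713 CPM, while members with under 50 Bpifa1 UMIs per 10000 held 91.6, 62.3 and 376 CPM, under the airway basal cells in libraries 1 and 2. Library 1 was highest and library 3 lowest among members, as for Bpifa1. Pigr, the receptor that carries polymeric antibodies across the lining, was at 277, 138 and 53.0 CPM against 22.8, 11.1 and 10.3 CPM (3.55 ± 0.64, adjusted p = 0.0258). Pon1, a paraoxonase, differed by 3.91 ± 0.41, Cyp4f15, a fatty acid hydroxylase of the cytochrome P450 family, by 3.81 ± 0.61 and Alox15, a lipoxygenase, by 3.69 ± 0.58. The 10 largest rises also held Tmem213 (3.92 ± 0.76), Wfdc1 (3.89 ± 0.61), Clca1 (3.65 ± 0.71) and Atp13a5 (3.26 ± 0.53), and each of the 10 was lowest, among members, in library 3. Reg3g, an antimicrobial lectin, was at 2795, 1979 and 1254 CPM in members and 391, 193 and 292 CPM in airway basal cells (2.92 ± 0.37), and in members with under 50 Bpifa1 UMIs per 10000 it was at 294, 262 and 614 CPM. The 9 gland markers moved with these rises, summing to 4217, 2060 and 781 CPM in members and 624, 941 and 624 CPM in airway basal cells, so members were higher in each library, and library 1 was highest and library 3 lowest among them, as for Bpifa1 and Lyz2. Ltf was the 1 marker of the 9 that was higher in members in each library, at 3960, 1973 and 738 CPM against 545, 251 and 557 CPM, and Prol1 was at 0 in both groups. The part of gland cells in the rises was not tested.

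The leading falls held a thyroid gene and several basal cell and matrix genes. Tg, the thyroglobulin that thyroid follicles store, was at 9.36, 3.24 and 0.822 CPM in members and 476, 469 and 37.9 CPM in airway basal cells (log2 difference -6.30 ± 1.22, adjusted p = 0.0329). A Tg UMI was found in 6.68%, 5.64% and 1.59% of airway basal cells, in 6.50%, 6.28% and 1.25% of members and in 12.2%, 20.4% and 8.78% of fibroblast cells, so the share of cells with a UMI did not follow the level. The part of free RNA or of thyroid cells in this difference was not tested. With the airway basal cells that held a Tg UMI removed, an alternative added after seeing the data, 605 genes passed, of which 583 were among the 602. Dlk2, a membrane protein related to Notch ligands, fell from 180, 165 and 147 CPM to 40.2, 19.4 and 29.4 CPM (log2 difference -2.33 ± 0.23, adjusted p = 0.00557). Krt14 fell from 576, 665 and 908 CPM to 218, 140 and 234 CPM (-1.74 ± 0.21, adjusted p = 0.00914), in contrast to Krt5, whose levels nearly met. The other falls were Smoc2 (-2.79 ± 0.18), a matrix protein, the collagen genes Col8a1 (-2.21 ± 0.26) and Col25a1 (-1.96 ± 0.33), Arhgap25 (-2.11 ± 0.25) and Camk4 (-1.82 ± 0.18), a calcium-dependent kinase. Tff2, a trefoil peptide of mucous cells, differed by -2.17 ± 0.38, but by 0.11 when comparison cells had to stay under the Scgb1a1 and Muc5b gates too.

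**Figure D3:**
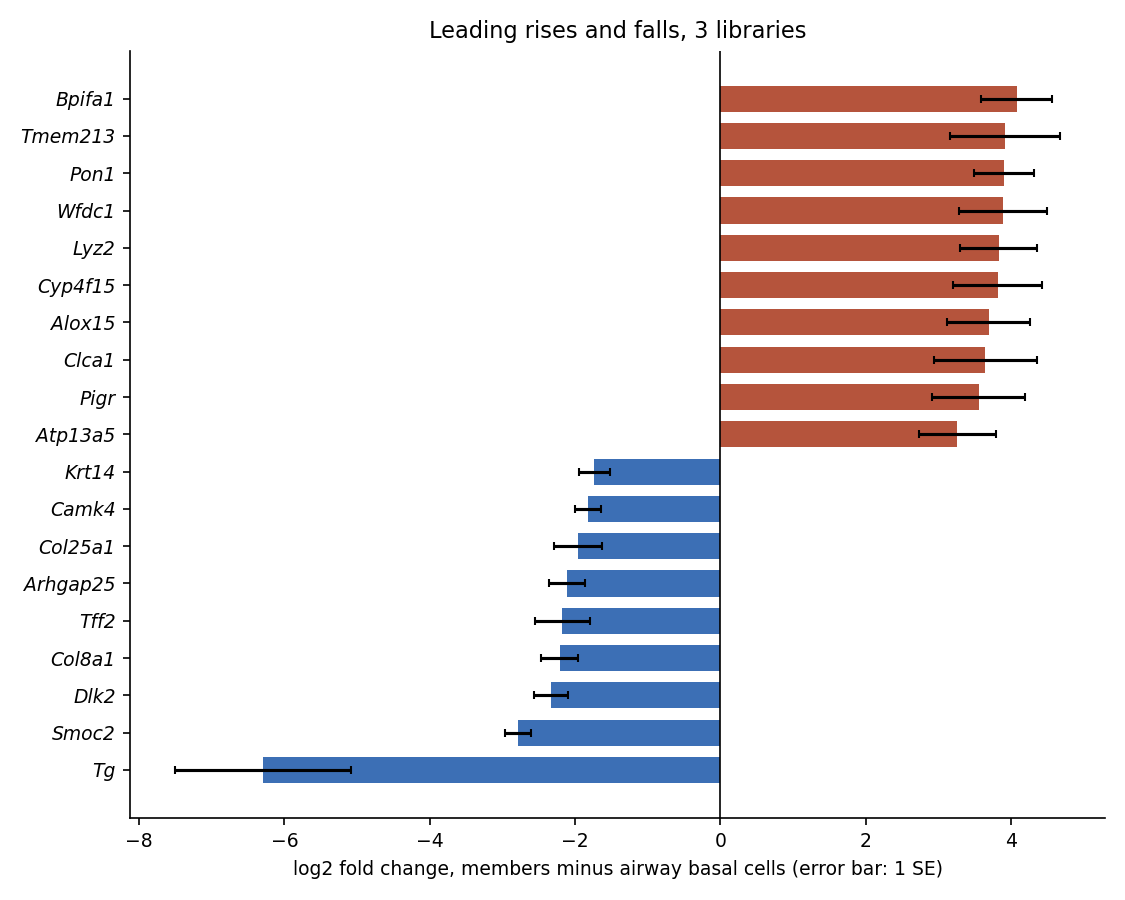
Log2 difference, members minus airway basal cells, of the 10 leading rises and 9 leading falls among genes that passed the test, with bars of 1 SE over 3 libraries. Bpifa1 leads the rises at 4.08, and Tg, at -6.30, has the widest error.

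The upstream sequences of Bpifa1 and Reg3g, which rose in members, are shown for the letters CTCAAG, searched on both strands, the core of sites known for Nkx2-1. They are the 250 bases before the start in RefSeq, on build GRCm38.p6, written 5′ to 3′ on the strand of the gene with matches in capitals, at chr2:154142630-154142879 (plus strand) and chr6:78468875-78469124 (minus strand).
Bpifa1: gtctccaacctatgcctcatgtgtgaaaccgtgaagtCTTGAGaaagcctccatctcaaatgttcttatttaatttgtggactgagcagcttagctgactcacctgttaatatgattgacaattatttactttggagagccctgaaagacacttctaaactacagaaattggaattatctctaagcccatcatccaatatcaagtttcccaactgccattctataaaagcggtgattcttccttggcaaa
Reg3g: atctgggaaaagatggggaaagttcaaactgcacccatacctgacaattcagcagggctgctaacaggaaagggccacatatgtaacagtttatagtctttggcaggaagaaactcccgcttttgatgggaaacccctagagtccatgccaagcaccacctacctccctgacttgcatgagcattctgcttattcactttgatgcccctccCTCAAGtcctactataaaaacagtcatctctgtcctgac
Each window held 1 match. These letters occur in 13.3% of all 32851 windows of that length, and among the 10 leading rises, of which 7 had a window, only Bpifa1 held them. Of the 10 leading falls 5 had a window and 0 held them. The letters TGTTTAC, a forkhead core searched in the same way, occur in 3.17% of all windows and in 0 of those of the rises and falls. A match is a description of the letters and not of a bound site.

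Over all genes tested against airway basal cells 2.31% were higher and 1.49% lower, and with the block 14.6% were called. These shares stand beside every list count of this comparison. Among the lists, 13 of 24 tested club cell and secretory genes were higher and 1, Tff2, was lower. The list's median log2 difference was 1.17, beside -0.01 over all genes. Cbr2, a carbonyl reductase abundant in club cells, was at 5678, 6084 and 6294 CPM against 3487, 3434 and 3868 CPM (0.86 ± 0.11, adjusted p = 0.0104). Cyp2f2, the cytochrome that activates naphthalene in club cells, did not pass, with 8628, 8014 and 9429 CPM in members and 6981, 5534 and 6899 CPM in airway basal cells (0.55 ± 0.14, adjusted p = 0.0768), although it passed with the block (adjusted p = 0.000758). Of the detoxifying enzymes, 5 of 36 oxidising and reducing genes were higher and none lower, and 4 of 34 conjugating genes were higher and 1 lower. Aldh1a1 rose by 1.64 ± 0.29 and Aldh1a7 by 1.16 ± 0.17. Members with under 50 Bpifa1 UMIs per 10000 held 30.5, 37.3 and 41.0 CPM of Aldh1a7, near the 35.5, 26.3 and 37.7 CPM of airway basal cells, and those with 500 or more held 132, 118 and 102 CPM. Ugt2b34 differed by 0.75 ± 0.27 without passing. Of 30 defence genes 5 were higher and 2 lower (median 0.05), and with the block 8 were higher and 8 lower.

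Some luminal genes were higher and some basal genes lower. Of 20 tested simple epithelial and luminal genes 7 were higher and none lower (median 0.62). Krt8, the keratin of cells that face the lumen, was at 215, 195 and 223 CPM against 104, 97.4 and 124 CPM (1.08 ± 0.10, adjusted p = 0.00512). Krt19 rose by 1.11 ± 0.11 and the membrane mucin Muc16 by 1.60 ± 0.22. Of 28 basal cell genes 12 were lower and none higher (median -0.56). The airway basal cells were chosen by a Trp63 UMI, which 62.9%, 74.3% and 83.5% of members held. The direction of this list is therefore not independent of the choice of cells. The list was not counted for members with Nkx2-1 and Trp63 UMIs, where 298 genes passed in all. Dst, which ties keratin to hemidesmosomes, fell from 899, 965 and 831 CPM to 471, 487 and 586 CPM (-0.69 ± 0.11, adjusted p = 0.0201). Krt15 went the other way without passing, at 3643, 4114 and 5845 CPM in members and 2457, 2624 and 4857 CPM in airway basal cells (0.57 ± 0.26, adjusted p = 0.297). Of 27 squamous differentiation genes 1, Spink5, was higher and 2, Tmprss11a and Dsc3, were lower.

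In the Notch pathway, in which a ligand on 1 cell activates a receptor on its neighbour and switches on Hes and Hey genes, 3 of 23 tested genes were higher and 4 lower, and with the library as a block 8 were higher and 4 lower. The 7 genes called without the block are named because they are few, after their values were seen. The receptor Notch3 was at 34.5, 26.2 and 25.8 CPM in members and 5.99, 5.99 and 8.80 CPM in airway basal cells (2.17 ± 0.20, adjusted p = 0.00512). Notch3 is also a marker of smooth muscle and pericytes, and the 6 markers of that list summed to 96.4, 27.2 and 36.5 CPM in members and 12.1, 8.35 and 30.5 CPM in airway basal cells. In library 1 Acta2, Myh11 and Tagln of that list were higher in members as well, Acta2 at 28.5 against 2.58 CPM, while in libraries 2 and 3 these 3 genes were lower in members, Acta2 at 0.249 and 7.28 against 0.605 and 8.60 CPM, and the part of these markers in library 1 was not tested. The target Hes1 was at 466, 550 and 474 CPM against 244, 236 and 246 CPM (1.16 ± 0.11, adjusted p = 0.00528), and Hey1 at 39.5, 35.9 and 47.1 CPM against 10.6, 8.63 and 16.4 CPM (1.90 ± 0.21). The 4 lower genes were the ligands Jag2 (-0.86 ± 0.11) and Dll1 (-1.51 ± 0.18), the ligand-related Dlk2 given before, and Lfng (-1.92 ± 0.17), which adds sugar to Notch receptors. Notch1 (0.30 ± 0.08) and Notch2 (0.58 ± 0.16) did not pass without the block and passed with it (adjusted p = 0.0286 and 0.0093). The list's median was 0.03.

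Of 33 tested transcription factors of the airway 2 were higher and 1 lower, and with the block 10 were higher and 3 lower. Over all genes 2.31% were higher and 1.49% lower, and 14.6% were called with the block. Ehf (0.70 ± 0.12) and Elf5 (1.95 ± 0.39), epithelial factors of the Ets family, were higher and Sox9 (-2.08 ± 0.31), a factor of progenitor and gland cells, was lower. Sox2 was at 289, 310 and 369 CPM against 283, 302 and 379 CPM, and Foxa1 at 113, 134 and 157 CPM against 123, 131 and 166 CPM, and neither passed. Of the remaining lists, 4 of 27 ion and water transport genes and 2 of 26 eicosanoid and retinoid genes were higher and none lower, and 4 of 35 Wnt, BMP and TGF-beta genes were lower and none higher. Of 16 genes of the EGF receptor and Lrig list 1 was higher and 2 lower, among them Lrig3 (-0.41 ± 0.08). Of 25 cell cycle genes 1, the inhibitor Cdkn1c, was lower, a share of 4% that is near the 3.79% called over all genes. Of 19 genes of the early response to dissociation 0 passed without the block and 8 were lower with it.

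**Figure D4:**
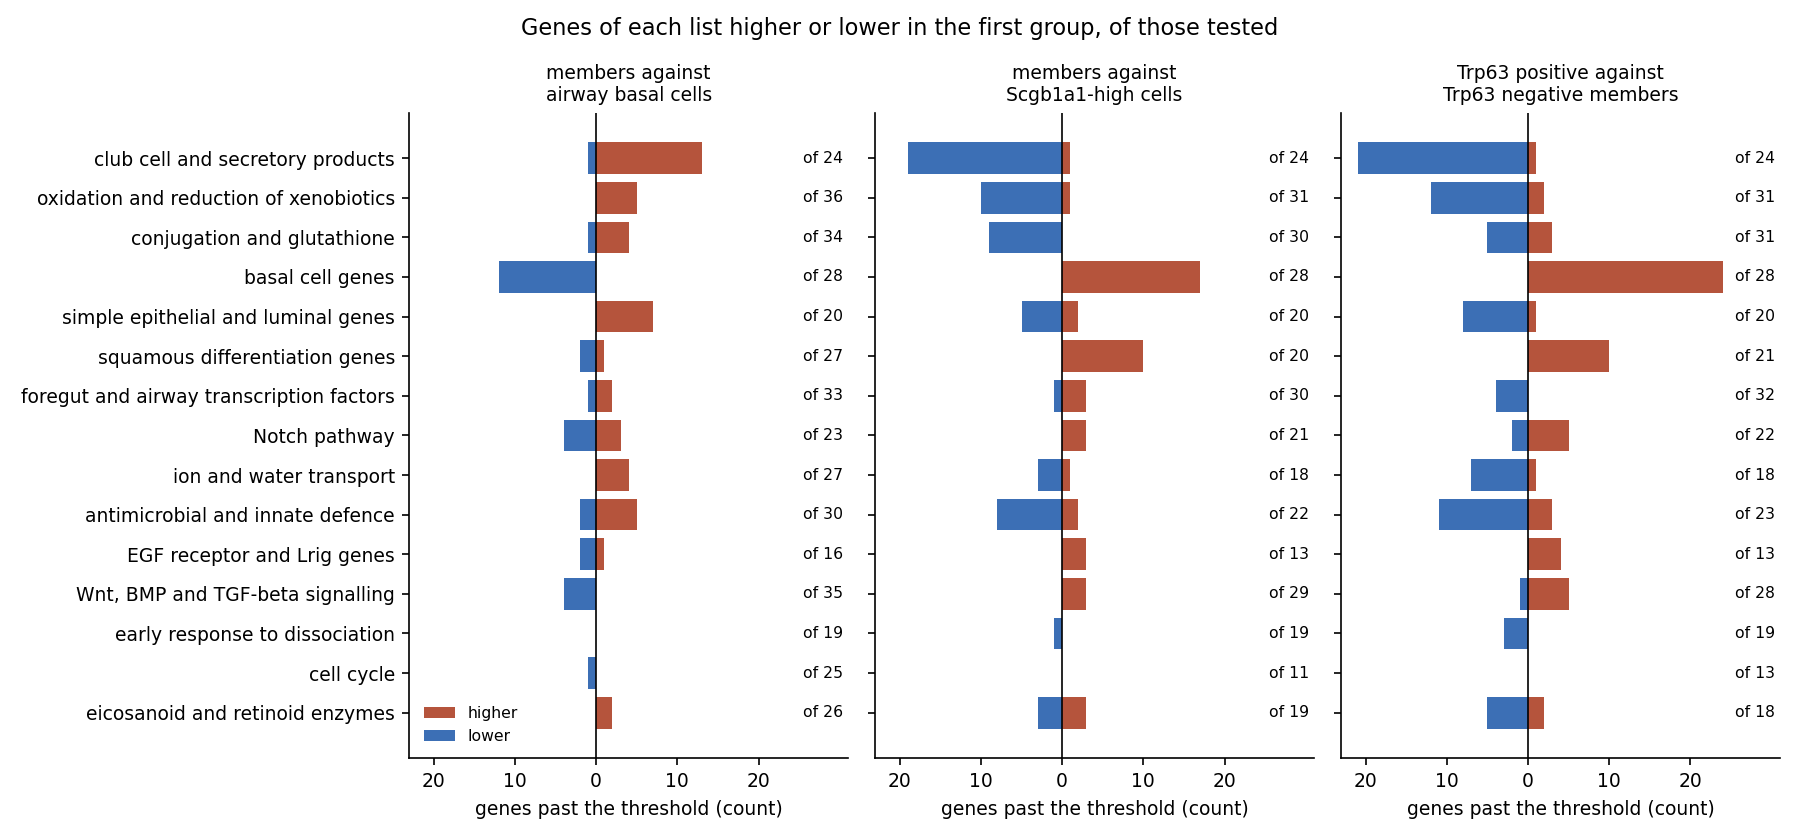
Genes of each list that passed the test and were higher (right) or lower (left) in the first group, with the number tested at the right of each bar, in 3 comparisons. Basal cell genes are lower in members than in airway basal cells (12 of 28) and higher in members than in Scgb1a1-high cells (17 of 28), and club cell genes run the opposite way (13 higher of 24, then 19 lower of 24). The groups were chosen by Trp63, Scgb3a2 or Scgb1a1, so these directions are not independent of the choice of cells.

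Against the Scgb1a1-high neighbours the club cell and the basal cell lists had the opposite direction. These neighbours were gated on Scgb1a1, the classical club cell product, so the directions of the lists are not independent of the gate. Of 11205 genes 376 (3.36%) were higher in members and 413 (3.69%) lower, 7.04% in all. Without library 1, 2 or 3 the calls were 134, 230 and 408. Gland markers summed to 7867, 7944 and 17280 CPM in the neighbours, above the members in each library, and fibroblast markers to 242, 21.4 and 73.7 CPM, against 351, 331 and 614 CPM in members. These markers were mostly Ltf and Dcn in members, both genes of the rule, so the sums are not independent of the choice of cells. Their part in the differences was not tested. The neighbours were shallower, with medians of 9546.5, 6192 and 7369.5 UMIs, and the 50, 22 and 62 cells make their levels coarse. Bpifb1, a secreted relative of Bpifa1, was at 33.9, 8.97 and 33.7 CPM in members and 714, 1523 and 274 CPM in the neighbours (-5.57 ± 0.69, adjusted p = 0.00175). Sftpa1, surfactant protein A, was at 9.78, 1.99 and 2.41 CPM against 79.0, 144 and 115 CPM (-5.02 ± 0.53, adjusted p = 0.00113). Tff2 (-4.45 ± 0.77), Fbn2 (-4.14 ± 0.98) and Chil4 (-3.70 ± 1.00) were the other leading falls, and each was highest in the neighbours of library 2 (Fbn2 at 6.32, 74.8 and 6.86 CPM). Bpifa1 was lower in members as well, by 2.45 ± 0.49 on the log2 scale, against 186762, 173390 and 148085 CPM.

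The leading rises over the Scgb1a1-high cells were Cdh2, Spink5, Kcnh1, Tmprss11g and Gria4. Cdh2, N-cadherin, was at 26.5, 23.4 and 21.4 CPM in members and had no UMI in the neighbours, which makes it at least 10.7-fold higher against a floor of 3 UMIs over that group. Spink5, a protease inhibitor of stratified epithelia, was at 276, 170 and 111 CPM against 3.16, 0 and 3.43 CPM (5.56 ± 0.73, adjusted p = 0.0021). Kcnh1, a potassium channel, had 1 UMI in the neighbours and a ratio of 62.8 (counting interval 11.2 to 2482), Tmprss11g, a membrane protease, 1 UMI and 47.9 (8.57 to 1892), and Gria4, a glutamate receptor subunit, 1 UMI and 44.5 (7.97 to 1760). Of 28 basal cell genes 17 were higher and none lower (median 1.33, all genes 0.03), and of 20 squamous genes 10 were higher and none lower. Krt14 was between 16.0 and 78.9 CPM in the neighbours, under the members in each library (1.59 ± 0.33). Of 24 club cell and secretory genes 19 were lower and 1 higher. Notch1 was at 91.2, 98.9 and 114 CPM in members and 14.2, 5.35 and 17.1 CPM in the neighbours (2.36 ± 0.24, adjusted p = 0.0011), whereas Notch3 (-0.56 ± 0.39) and Hes1 (0.25 ± 0.19) did not pass.

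The Muc5b-high neighbours numbered 79, 14 and 52, so library 2 was left out and 2 libraries a group remained. Of 12269 genes 432 (3.52%) were higher in members and 454 (3.7%) lower, 7.22% in all, and 1737 passed with the block. The leading falls were Tff2 (22.1 and 11.3 CPM in members, 200 and 2434 CPM in the neighbours), Lyz1, Arfgef3, Gp2 and Abcc8. Gp2, a membrane glycoprotein that binds bacteria, was at 3.91 and 5.52 CPM against 82.5 and 142 CPM (-4.90 ± 0.30, adjusted p = 0.000573), while Lyz1 of the neighbours was at 818 and 27.9 CPM. The leading rises were Pak6, Sfrp1, Gria4, Mpdz and B4galt5. Pak6, a kinase, was at 24.0 and 32.9 CPM and had no UMI in the neighbours, at least 15.0-fold higher, and Sfrp1, a secreted Wnt antagonist, had 1 UMI there, a ratio of 71.3 (counting interval 12.8 to 2820). Notch1 was at 5.69 and 4.66 CPM in these neighbours (3.81 ± 0.32). Of 28 basal cell genes 19 were higher and none lower, and of 25 club cell genes 18 were lower and 1 higher. These directions are not independent of the gate on Muc5b, a product of secretory cells. Gland markers summed to 11896 and 14310 CPM in these neighbours against 4217 and 781 CPM in members, and fibroblast markers to 22.8 and 37.3 CPM against 351 and 614 CPM. In members these markers were again mostly Ltf and Dcn, both genes of the rule. Their part in the differences was not tested. The members and the libraries behind them are the same in the 3 comparisons, so the comparisons are not independent of each other.

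Within the members, Bpifa1 and the basal genes ran in opposite directions. Members were divided, after the levels of Bpifa1 were seen, at 50 and 500 Bpifa1 UMIs per 10000, and the values are a description. Krt5 is also a gene of the rule, which drops barcodes with UMIs of all of Krt5, Ltf, Scgb3a1 and Dcn. The dropped barcodes that met the gates held 56788, 57949 and 38097 CPM of Bpifa1 and 1019, 892 and 1186 CPM of Krt5. The part of this drop in the pattern was not tested. In the order of the libraries 45.9%, 48.2% and 62.9% had under 50, 24.5%, 23.0% and 21.8% had 50 to 500, and 29.6%, 28.8% and 15.3% had 500 or more. A Trp63 UMI was in 83.6%, 85.9% and 91.6% of the lowest class and in 27.0%, 41.8% and 48.5% of the highest. Krt5 went from 1255, 1323 and 1826 CPM to 105, 71.6 and 411 CPM, and Krt14 from 437, 250 and 314 CPM to 38.4, 22.2 and 53.8 CPM. Reg3g went the other way, from 294, 262 and 614 CPM to 6816, 5851 and 4373 CPM. Nkx2-1 went from 125, 114 and 157 CPM to 79.3, 86.9 and 126 CPM, and Cyp2f2 was at 8013, 7499 and 8458 CPM in the lowest and 9021, 8252 and 11134 CPM in the highest class. Scgb3a2 rose from 4102, 4052 and 4100 CPM to 7442, 7279 and 5750 CPM. Median depth did not follow these classes, at 13694, 20976.5 and 14476 UMIs in the lowest and 17671, 22344 and 14029 in the highest.

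**Figure D5:**
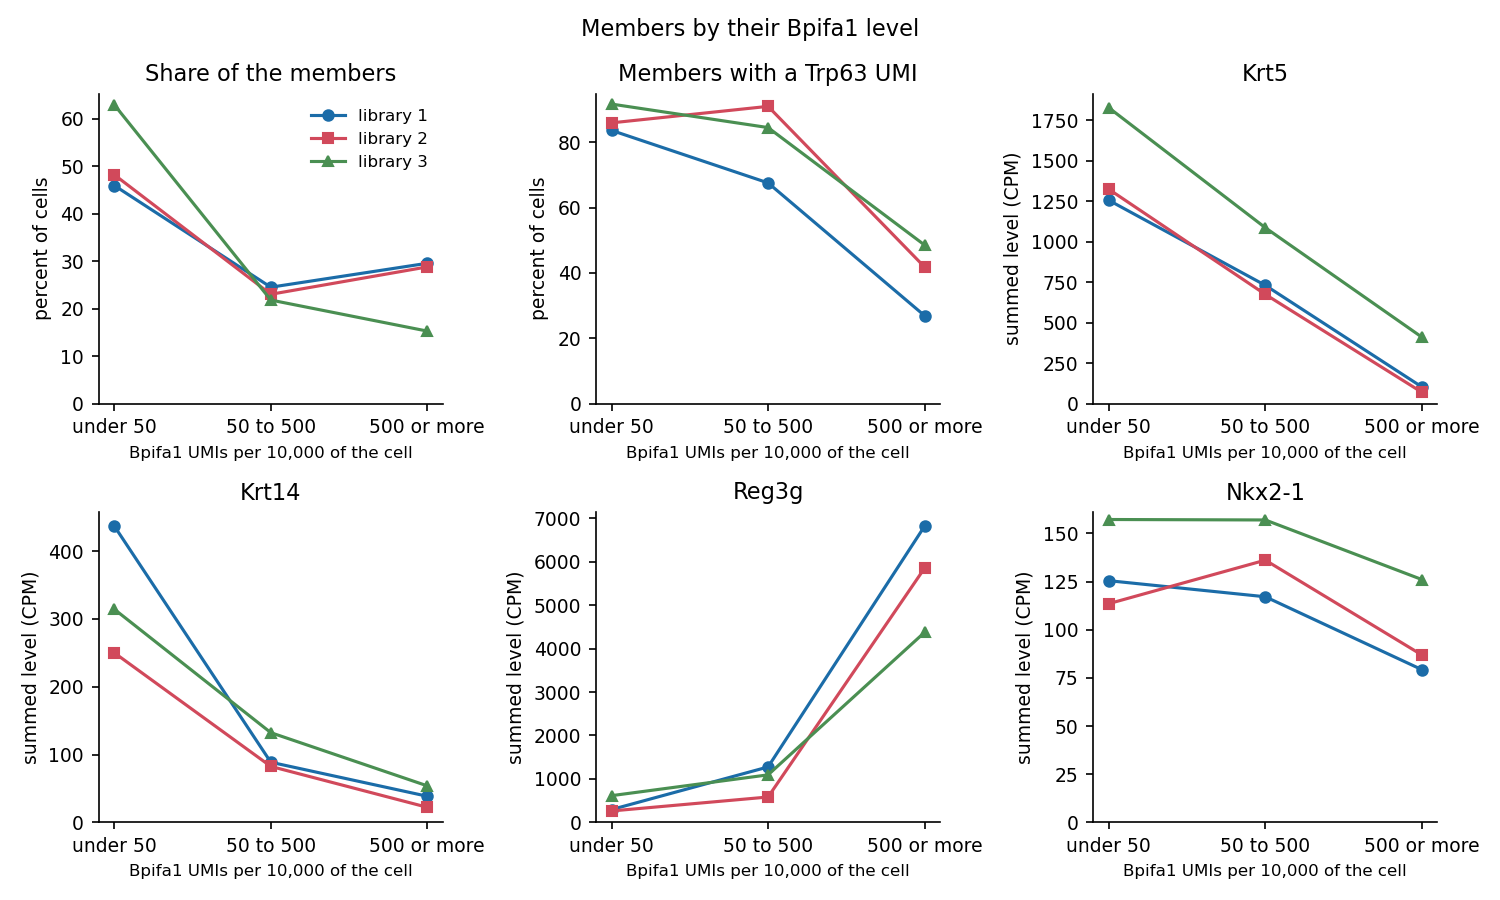
Members of each library by their Bpifa1 level (UMIs per 10000, 3 classes): the share of members in each class, the share with a Trp63 UMI (percent), and the summed level (CPM) of Krt5, Krt14, Reg3g and Nkx2-1. The Trp63 share drops from 83.6% to 27.0% in library 1 and from 91.6% to 48.5% in library 3 between the lowest and the highest class. Krt5 is a gene of the rule that chose the kept cells, and the values are a description.

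Members with and without a Trp63 UMI were then compared, 1375 against 411 cells. Of 11594 genes 532 (4.59%) were higher in Trp63-positive members and 784 (6.76%) lower, 11.4% in all. Without library 1, 2 or 3 the calls were 259, 606 and 1261. Trp63-positive members were deeper, with medians of 15562, 23718.5 and 15936 UMIs against 7569, 11595 and 7404, and with cells matched on UMI count 358 genes were higher and 515 lower. Grm8, a glutamate receptor, had 3 UMIs in Trp63-negative members and a ratio of 28.8 (counting interval 9.79 to 140.2). Lamb3, a laminin chain of the basement membrane, was at 119, 77.0 and 105 CPM against 10.4, 4.19 and 24.6 CPM (2.54 ± 0.30, adjusted p = 0.000688). Ngfr, a neurotrophin receptor known on basal cells, was at 28.6, 19.1 and 38.0 CPM against 1.35, 1.40 and 9.17 CPM (2.52 ± 0.47, adjusted p = 0.0064). Gria4 (2.77 ± 0.43) and Sgcd (2.71 ± 0.27), a sarcoglycan, completed the leading rises. Of 28 basal cell genes 24 were higher and none lower, with a median of 1.56 beside 0.01 over all genes. Trp63 is itself held by basal cells, so the directions of the basal and secretory lists are not independent of this split.

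Lower in Trp63-positive members were 21 of 24 club cell and secretory genes, with 1 higher, and 11 of 23 defence genes, with 3 higher. Bpifa1 was at 24896, 31486 and 14682 CPM in Trp63-positive and 139623, 137535 and 100338 CPM in Trp63-negative members (-2.67 ± 0.39, adjusted p = 0.00199), where it made up 14.0%, 13.8% and 10.0% of all UMIs. Reg3g differed by -3.19 ± 0.26 and Lyz2 by -3.49 ± 0.36. Cyp2a5, a cytochrome P450 of airway secretory cells, was at 404, 633 and 258 CPM against 3400, 2852 and 1877 CPM (-2.92 ± 0.36). Cyp2f2 did not pass, at 8690, 8315 and 9461 CPM against 8490, 6629 and 9143 CPM (-0.13 ± 0.19, adjusted p = 0.742). The fitted difference uses TMM scaling and the CPM does not, so for Cyp2f2 the sign of the fit is opposite to that of the CPM, and no direction is read from it. Abca13, a lipid transporter, led the falls with Aspn, Pi16, Igfbp6 and Lyz1, at 3.65, 2.73 and 1.44 CPM against 67.1, 87.9 and 51.6 CPM (-5.18 ± 0.35, adjusted p = 3.8e-05). Aspn, Pi16 and Igfbp6 are known from fibroblasts, and 4 of the 6 fibroblast markers were higher in Trp63-negative members in all libraries, none at 0, with summed levels of 237, 680 and 833 CPM against 402, 256 and 589 CPM. Of 8 ciliated markers 6 were higher in Trp63-negative members in each library, with sums of 124, 184 and 113 CPM against 85.9, 92.2 and 104 CPM. The 6 smooth muscle and pericyte markers, Notch3 among them, summed to 231, 51.6 and 127 CPM in Trp63-negative and 35.9, 21.8 and 26.1 CPM in Trp63-positive members. Gland markers moved with the split too, at 720, 402 and 228 CPM in Trp63-positive and 11987, 9691 and 5627 CPM in Trp63-negative members for the 9 markers, of which 2 were lower in Trp63-positive members in each library and Lpo, Prol1 and Bpifa2 were at 0 in Trp63-negative members. Over all members the gland sum was mostly Ltf and the fibroblast sum mostly Dcn, both genes of the rule. The part of these marker lists in the differences was not tested. An alternative added after seeing the data removed the members with a UMI of Dcn, a gene of the rule. It left 93, 45 and 186 Trp63-positive and 123, 40 and 98 Trp63-negative members. Among them Abca13 differed by -4.21, while the 3 fibroblast genes were under the filter on low counts.

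The named markers split between these subsets. Aldh1a7 was lower in Trp63-positive members, at 54.5, 61.6 and 53.7 CPM against 126, 116 and 84.8 CPM (-1.22 ± 0.19, adjusted p = 0.00262), and Ugt2b34 higher, at 51.7, 33.4 and 64.0 CPM against 11.7, 9.77 and 25.2 CPM (1.38 ± 0.29, adjusted p = 0.0123). The Notch receptors also split. Notch1 was at 121, 114 and 120 CPM in Trp63-positive and 24.3, 30.7 and 55.0 CPM in Trp63-negative members (1.44 ± 0.20, adjusted p = 0.0015), Notch3 at 31.8, 20.6 and 22.8 against 40.5, 51.6 and 52.1 CPM (-1.17 ± 0.19, adjusted p = 0.00348), and Notch2 differed by -0.82 ± 0.18. Hes1 did not pass, at 495, 562 and 482 CPM against 399, 493 and 406 CPM (-0.01 ± 0.16, adjusted p = 0.989), and here too the scaling decides the sign. Krt8 (-0.64 ± 0.11) and the membrane mucins Muc1 (-1.53 ± 0.15), Muc4 (-2.38 ± 0.31) and Muc16 (-1.73 ± 0.20) were lower in Trp63-positive members.

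Lrig1, a transmembrane inhibitor of growth factor receptors and the driver of the label, had a UMI in 47.6%, 58.6% and 54.5% of members (mean 53.6% ± 5.58), beside 27.0%, 34.3% and 33.7% of fibroblast cells, which passed the same sort. Its summed level was even, at 69.3, 67.8 and 70.9 CPM, against 82.3, 83.1 and 89.6 CPM in airway basal cells, and the difference of -0.17 ± 0.07 did not pass (adjusted p = 0.259). Lrig1-positive members were deeper than Lrig1-negative members, with medians of 18691, 24560.5 and 17554 UMIs against 8540.5, 15271 and 10897. Between them 0 of 12074 genes passed (0%, edgeR), with a smallest adjusted p of 0.658, and DESeq2 called 2. In edgeR 500 genes had an unadjusted p under 0.05, a smaller share than the 0.05 expected without any difference. With the library as a block 23 genes (0.19%) were higher and 47 (0.389%) lower, 0.58% in all, and with cells also matched on UMI count, added after seeing the data, 87 were higher and 81 lower. All 6 fibroblast markers were higher in Lrig1-positive members in each library, summing to 402, 393 and 673 CPM against 274, 196 and 505 CPM, 6 of 8 ciliated markers were lower in each, and the gland markers summed to 3913, 1305 and 392 CPM against 4674, 3723 and 1497 CPM. Over all members the fibroblast sum was mostly Dcn and the gland sum mostly Ltf, both genes of the rule. The part of these marker lists in the differences was not tested. Under the block, without library 1 there were 24 calls and without library 2 there were 284.

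Of the genes that led this blocked comparison, Lyz2 was at 4240, 1001 and 944 CPM in Lrig1-positive and 6380, 7100 and 2240 CPM in Lrig1-negative members (log2 difference -1.61, adjusted p = 0.0161), and Cd36, a fatty acid receptor, at 45.2, 19.9 and 8.60 against 110, 67.8 and 19.0 CPM (-1.42, adjusted p = 7.1e-05). Krt6a, a stress keratin, was between 28.4 and 38.1 CPM against 102, 49.5 and 80.6 CPM (-1.42, adjusted p = 0.000297), and Basp1 (-1.11) and Nupr1 (-1.08) followed. The rises were Grm8 (1.04), Med12l (0.82), Kcnip4 (0.72), Tmprss11a (0.66) and Ppp2r2b (0.53). The same direction in each library was a condition for naming a gene. Without the block the adjusted p was between 0.701 and 0.962 for these rises and between 0.658 and 0.962 for the falls (edgeR). Kcnip4, a regulator of potassium channels, was at 426, 553 and 165 CPM against 202, 325 and 111 CPM. Of 23 club cell and secretory genes 5 were lower and none higher with the block, of 28 basal cell genes 2 were lower, and of 22 Notch pathway genes 0 passed.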

How the data were processed

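The authors sequenced 10x GEM-X 3' libraries and, per the labels and the submitters' processing notes, aligned them to mm39 with Cell Ranger 8.0.1. They deposited UMI counts per gene and called barcode, without normalization or filters. The members, lists and limits used here were chosen with earlier results of these data known. The study's methods word the limits as UMIs and genes the other way round, which was an alternative.

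UMI counts were summed per library and cell group (at least 20 cells) and tested in edgeR 4.0.16 (R 4.3.3, TMM, filterByExpr, glmQLFTest, two-sided, Benjamini-Hochberg, threshold 0.05), without the 9 genes of the rule, mitochondrial genes and, in its own comparison, Lrig1. SE is the log2 difference divided by the root of F. Scripts were tested on simulated data. The groups compared share each library's pool of larynges, and the deviations of their sums from the group means correlated by 0.116 to 0.539 over genes, so a replicate block was fitted too. DESeq2 1.42.0, other gates, thinning and libraries left out were alternatives. CPM is the summed count per 1000000 UMIs of the group.

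Named genes were the rule's genes and the markers, the 10 largest rises and falls against airway basal cells and 5 in other comparisons (passing, at least 20 CPM in the higher group, same direction in each library, predicted genes passed over), the 4 most abundant members of each list and 29 fixed epithelial genes. Setting list genes at 0 in 1 group to their bound changed no median. Doublets were scored but kept. A result that met the rule for named genes is not reported here.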

Additional observations from a re-analysis of the deposited data

Results flagged for a closer look

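The barcodes that the rule drops for holding UMIs of all of Krt5, Ltf, Scgb3a1 and Dcn include 469 that meet the Scgb3a2, Scgb1a1 and Muc5b gates, 155, 34 and 280 in the 3 libraries, a signal outside the cells compared in the report. They are between 15.1% and 24.5% of all barcodes that meet the gates within the limits. Their median depth was 21901, 28753.5 and 19302.5 UMIs, above that of the members. They held 5241, 4689 and 5077 CPM of Scgb3a2, 56788, 57949 and 38097 CPM of Bpifa1 and 343, 275 and 374 CPM of Trp63. Their Krt5 was at 1019, 892 and 1186 CPM. Whether these barcodes are single cells was not tested.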

How the results depend on the processing

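Directions of the leading genes held in all alternatives except for Tff2 against airway basal cells (0.48 with the limits as the methods word them, 0.11 with comparison cells under the Scgb1a1 and Muc5b gates) and Krt6a in the Lrig1 comparison (0.39 with the limits as worded). The same direction in each library was a condition for naming them. With a library left out, their calls were lost in 41 of 120 values against airway basal cells and 8 of 60 against Scgb1a1-high cells. For the Lrig1 and Trp63 comparisons this was 35 of 60 and 1 of 60. In the other alternatives calls were lost in 13 of 314, 5 of 114, 116 of 148 and 2 of 125 values, in the same order, and in 4 of 110 against Muc5b-high cells. Calls against airway basal cells (602) were 2316 with the replicate block, 1309 by DESeq2, 358 and 1019 at Scgb3a2 gates of 10 and 40, 221 with the limits as worded, 298 for members with Nkx2-1 and Trp63 UMIs, 0 to 969 with a library left out and 940 to 3064 with the block as well, and, with the block, 2717 with mixed barcodes kept and 1525 thinned to 5000 UMIs. Against Scgb1a1-high cells (789) they were 1417 with no filter, 404 at a gate of 40, 162 and, with the block, 366 thinned (2 libraries), 134 to 408 with a library left out and 469 to 826 with the block. Against Muc5b-high cells (886) they were 1737 with the block, 1726 with no filter, 571 and 566 at gates of 10 and 40, 96 with the limits as worded, 564 thinned and 1709 with the block and mixed barcodes kept. Between Lrig1 classes (0) they were 70 with the block, 2 by DESeq2, 26 with no filter, 1 at a gate of 40, 24 to 284 with the block and a library left out, and, with the block, 63 with mixed barcodes kept, 25 thinned and 168 matched. Between Trp63 classes (1316) they were 1996 with the block, 2054 with no filter, 259 to 1261 with a library left out and 898 to 1899 with the block, 196 with the limits as worded, 2275 with the block and mixed barcodes kept, 637 thinned and 873 matched. The member share was 6.87% and 1.74% at gates of 10 and 40 and 2.56% with the limits as worded. Members with a UMI, with the limits as worded and thinned to 5000 and 2000 UMIs, were 15.3%, 28.5% and 11.5% for Lrig1, 43.8%, 61.4% and 39.1% for Trp63, and 63.5% and, at 2000, 59.8% for Krt5. The cause of these changes was not tested, beyond the fewer libraries, cells or genes in a fit. Against Scgb1a1-high cells the limits as worded left too few cells to fit, and no library could be left out against Muc5b-high cells. Fits with mixed barcodes kept, with cells selected on Tg or Dcn, and with the block joined to another choice were added after seeing the data. Depth limits the neighbours of 22 and 14 cells in library 2.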
